A study of Homo sapiens with 8 samples.

Results

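The 10 genes described here encode membrane-bound sheddases and the inhibitors that restrain them: ADAM8, ADAM9, ADAM10, ADAM12, ADAM15 and ADAM17 on the protease side, and TIMP1, TIMP2, TIMP3 and RECK on the inhibitor side. They are 10 of the 57905 genes in the deposited table and were found by matching Ensembl identifiers to symbols. The set was selected on the counts of ADAM9, which were lower after YAP1 siRNA, so every value of the 10 genes in that contrast is a description and carries no test.

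The study sequenced RNA from 8 libraries of 2 human prostate cancer lines. It asked which genes respond to YAP1 in EnzaR cells, which resist enzalutamide, and what vesicles from those cells do to sensitive cells. YAP1 is a co-activator of transcription controlled by Hippo kinases, and enzalutamide is a hormone-blocking drug given for prostate cancer. EnzaR cells, kept in 10 uM enzalutamide, received 40 nM of siRNA against YAP1 (siYAP1) or of control siRNA (siNC) for 48 h, with 2 libraries per group. LNCaP cells, an androgen-sensitive and enzalutamide-sensitive prostate cancer line grown without the drug, had 1 library per group. They were given extracellular vesicles (EVs) for 48 h from EnzaR cells depleted of YAP1 (EV-siYAP1), from EnzaR cells depleted of CII (EV-siCII; the study's design text names COUP-TFII, the nuclear receptor encoded by NR2F2) or from EnzaR cells with control siRNA (EV-siNC), or they received a vehicle without vesicles (control). The labels say neither which vehicle was used nor whether the EnzaR replicates came from separate cultures. The p-values therefore measure library-to-library spread, which may be technical only.

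The ADAM proteins of this set are zinc metalloproteases anchored in the membrane. They cut the outer part off neighbouring membrane proteins, a step called ectodomain shedding. Other ADAM genes, compared further below, include non-catalytic ones. Shedding frees growth factors that activate ERBB receptors, starts Notch signalling and removes adhesion molecules such as E-cadherin. TIMPs are secreted inhibitors that block matrix metalloproteinases and some ADAMs, and RECK is an inhibitor held at the cell surface by a lipid anchor.

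Total counts lay between 16682669 and 18248939 per library, so that 3 counts corresponded to 0.164 to 0.180 CPM (counts scaled to the library's total). The luminal prostate markers KLK3, KLK2, TMPRSS2, FOLH1, HOXB13, KRT8, KRT18 and STEAP2 each reached 1 CPM in every library. The basal markers KRT5 and TP63, the leukocyte markers PTPRC, CD3E and MS4A1 and the endothelial marker KDR had 0 counts throughout. Another endothelial marker, VWF, held 128 to 240 counts per library. The basal markers KRT14, KRT15 and KRT17, the leukocyte markers CD68 and CD14 and the endothelial marker CDH5 held at most 10 counts in any library. Of the 6 fibroblast markers, 4 set the second siYAP1 library apart from the other EnzaR libraries: it held 58 counts of COL3A1, 7 of DCN, 6 of COL1A2 and 6 of LUM, where the other 3 EnzaR libraries held 0 of each. COL1A1 and PDGFRB did not, with 376 and 7 counts there and 294 to 400 and 9 to 21 counts in the other 3. YAP1 itself was at 6.0 and 7.33 CPM in the siYAP1 libraries, against 59.6 and 49.0 CPM in the siNC libraries (log2 fold change -3.02, SE 0.154, edgeR adjusted p = 2.07e-10). The transcript of NR2F2 was at 43.0 and 47.9 CPM in the siYAP1 libraries, against 47.2 and 45.6 CPM in the siNC libraries.

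Promoters were looked up in RefSeq (GRCh38.p14) as the 250 bases before the annotated start. ADAM9 and TIMP2 had no entry and were not searched, which left the promoters of 8 of the 10 genes. Those of ADAM10, ADAM15 and ADAM17 are shown because these proteases had reads in all 8 libraries and, with ADAM9, carry the contrast in direction described below. Capitals mark GGAATG read on either strand, the core letters bound by TEAD factors, the DNA-binding partners of YAP1.
ADAM10 (chr15:58749708-58749957, minus strand): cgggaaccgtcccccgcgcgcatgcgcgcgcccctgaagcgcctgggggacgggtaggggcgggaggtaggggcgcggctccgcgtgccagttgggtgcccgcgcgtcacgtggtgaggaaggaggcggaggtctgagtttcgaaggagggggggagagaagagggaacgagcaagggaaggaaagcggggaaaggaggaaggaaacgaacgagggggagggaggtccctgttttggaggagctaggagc
ADAM15 (chr1:155051066-155051315, plus strand): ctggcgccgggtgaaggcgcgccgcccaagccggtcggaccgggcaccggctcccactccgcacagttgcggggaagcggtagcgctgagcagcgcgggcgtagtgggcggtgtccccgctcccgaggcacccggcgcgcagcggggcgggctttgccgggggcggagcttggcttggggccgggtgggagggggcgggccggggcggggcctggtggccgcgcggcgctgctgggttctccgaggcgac
ADAM17 (chr2:9555831-9556080, minus strand): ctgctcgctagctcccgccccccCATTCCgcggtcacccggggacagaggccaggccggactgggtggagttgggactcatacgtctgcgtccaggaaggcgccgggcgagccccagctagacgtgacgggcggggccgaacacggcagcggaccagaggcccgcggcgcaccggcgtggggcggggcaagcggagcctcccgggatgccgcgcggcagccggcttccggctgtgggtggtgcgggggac
Of the 8 promoters, 1 held GGAATG, that of ADAM17, on the reverse strand 227 bases before the start. The same letters occurred in 11.9% of 35116 RefSeq promoters of that length. TGANTCA, the letters bound by AP-1 factors, was in 0 of the 8 and in 6.57% of all promoters, and the 2 motifs share no match here. These are letter matches in a window and say nothing of binding.

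Levels between genes were compared per length, as the deposited FPKM (reads scaled to exon length and to the library's total). ADAM15 led with 86.7 ± 8.29 FPKM (SD over the 8 libraries), and its lowest library, at 73.9 FPKM, lay above the highest value of any other gene of the set. TIMP2 followed at 27.4 ± 21.9 FPKM, a mean over unlike lines: its FPKM averaged 6.23 ± 0.028 in siYAP1, 7.73 ± 0.453 in siNC (n = 2 each) and 47.8 ± 2.20 over the 4 LNCaP libraries. ADAM9 averaged 7.21 ± 2.49 FPKM and ADAM10 4.96 ± 1.24 FPKM. Their ranges over the 8 libraries overlapped, but ADAM9 lay above ADAM10 in each library. ADAM9 lay below TIMP2 in siYAP1 and LNCaP libraries and above it in siNC libraries, where ADAM9 was at 8.89 and 9.80 FPKM and TIMP2 between 7.41 and 8.05 FPKM. ADAM17 (1.40 ± 0.349 FPKM) and ADAM8 (1.16 ± 0.140 FPKM) could not be ordered beyond their spread, and RECK (0.911 ± 0.166 FPKM) lay below both in each of the 8 libraries. TIMP3 and ADAM12 were low throughout, with means of 0.065 and 0.012 FPKM and at most 12 and 4 counts in any library. TIMP1 reached 1.65 FPKM, on 52 counts, in LNCaP control and had 0 to 4 counts in the other 7 libraries.

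**Figure D1:**
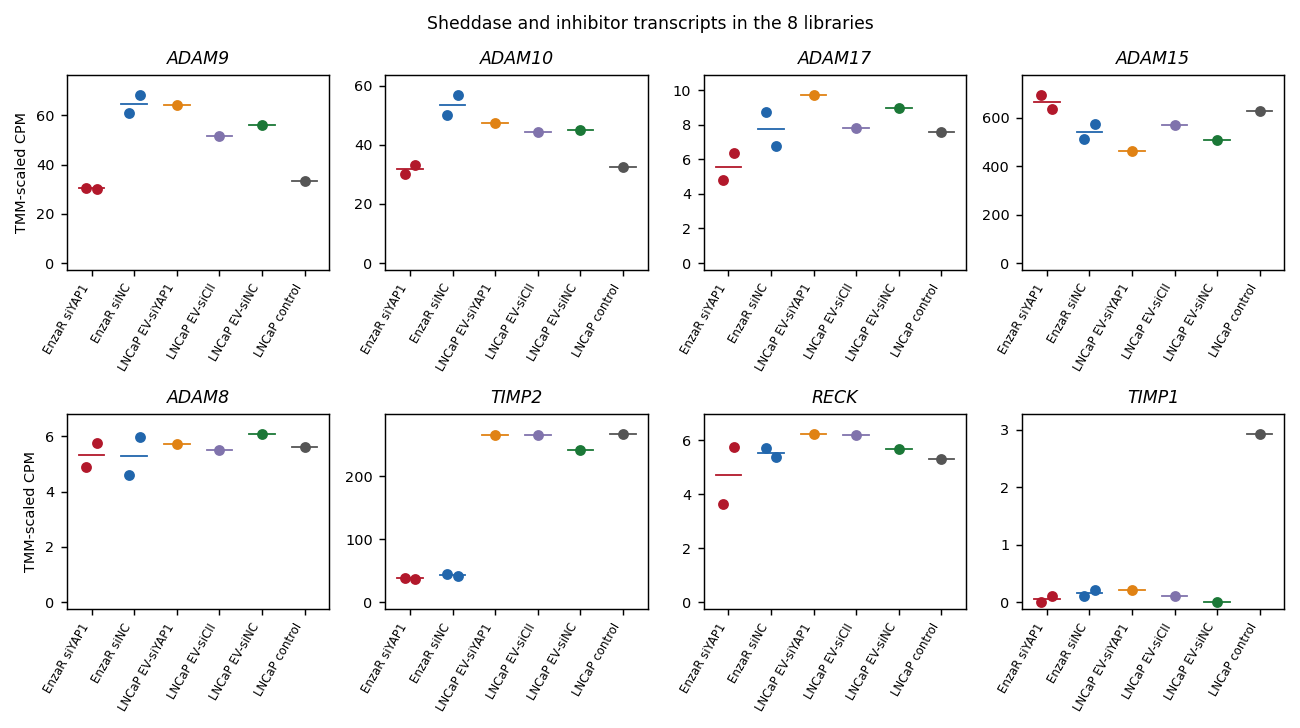
TMM-scaled CPM (vertical axes) of 8 of the 10 genes in the 8 libraries; points are libraries and lines are group means, with 2 libraries per EnzaR group and 1 per LNCaP group. ADAM9 and ADAM10 were lowest in the siYAP1 and LNCaP control libraries, TIMP2 was low in all 4 EnzaR libraries, and TIMP1 exceeded 1 CPM only in LNCaP control.

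The comparison within EnzaR cells asked what differs when YAP1 is depleted. ADAM9, ADAM10 and ADAM17 transcripts were lower in siYAP1 than in siNC libraries, and ADAM15 was higher. In bulk libraries such as these, fewer cells with a transcript and less of it per cell cannot be told apart. ADAM9, also called meltrin gamma, is a broad-range sheddase known to be raised in prostate tumours. Its gene (ENSG00000168615) lies on the plus strand of chromosome 8, from 38854388 to 38962663 in hg19. ADAM9 was at 30.5 and 30.1 CPM in the siYAP1 libraries, against 60.8 and 68.3 CPM in the siNC libraries. Both siYAP1 values lay below both siNC values, with means of 30.3 ± 0.321 and 64.5 ± 5.36 CPM (SD, n = 2 each) and a log2 fold change of -1.10 (SE 0.116).

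ADAM10 (ENSG00000137845, chromosome 15, 58887403 to 59042177, minus strand) encodes the main alpha-secretase, which cuts Notch receptors, the amyloid precursor and cadherins. It was at 30.2 and 33.2 CPM in the siYAP1 libraries, against 50.2 and 57.0 CPM in the siNC libraries. The groups did not overlap, and the log2 fold change was -0.76 (SE 0.119). ADAM17 (ENSG00000151694, chromosome 2, 9628615 to 9695921, minus strand) encodes TACE, which releases TNF and most ERBB ligands. At 4.81 and 6.34 CPM in the siYAP1 libraries, against 8.76 and 6.80 CPM in the siNC libraries, it also showed no overlap, but the gap between the nearer libraries was smaller than the spread within either group. Its log2 fold change was -0.48 (SE 0.218). The last exons of ADAM17 overlap IAH1 on the other strand, which held up to 648 counts where ADAM17 held up to 180; whether counting used strand is not given in the sources used here, and reads in the overlap cannot be assigned.

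ADAM15 (ENSG00000143537, chromosome 1, 155023042 to 155035252, plus strand), whose protein carries an integrin-binding motif in its disintegrin domain, ran the other way. It was at 695.7 and 636.8 CPM in the siYAP1 libraries, against 511.3 and 575.7 CPM in the siNC libraries, with a log2 fold change of 0.29 (SE 0.10). ADAM8 (ENSG00000151651, chromosome 10, 135075907 to 135090372, minus strand), a sheddase best known in leukocytes, was at 4.88 and 5.76 CPM in the siYAP1 libraries, against 4.60 and 5.97 CPM in the siNC libraries. Those values overlapped, and the log2 fold change was 0.01 (SE 0.230). ADAM12 (ENSG00000148848, chromosome 10, 127700950 to 128077024, minus strand), a protease of muscle and placenta, had 2 and 3 counts in the siYAP1 libraries and 3 and 1 counts in the siNC libraries.

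Among the inhibitors, TIMP2 (ENSG00000035862, chromosome 17, 76849059 to 76921469, minus strand), which also helps MMP14 activate pro-MMP2, was at 38.5 and 37.1 CPM in the siYAP1 libraries, against 44.8 and 42.1 CPM in the siNC libraries. The log2 fold change was -0.21 (SE 0.114). RECK (ENSG00000122707, chromosome 9, 36036430 to 36124448, plus strand), an inhibitor of ADAM10 and of matrix metalloproteinases, was at 3.63 and 5.76 CPM in the siYAP1 libraries, against 5.69 and 5.36 CPM in the siNC libraries. These overlapped, and the 2 siYAP1 libraries differed from each other more than the group means did. TIMP3 (ENSG00000100234, chromosome 22, 33197687 to 33259030, plus strand, inside SYN3), the TIMP that inhibits ADAM17, had 1 count in each siYAP1 library and 4 and 2 counts in the siNC libraries. TIMP1 (ENSG00000102265, chromosome X, 47441712 to 47446188, plus strand, inside SYN1), a TIMP that inhibits ADAM10, had 0 and 2 counts in the siYAP1 libraries and 2 and 4 counts in the siNC libraries.

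Of the 10 genes, 7 passed the filter on low counts. At an adjusted p under 0.05 over all 14948 genes tested, 2 of these 7 were lower in siYAP1 (ADAM9 and ADAM10) and 0 were higher (1, ADAM15, with DESeq2), where 6.22% of all tested genes were lower and 5.83% higher; the contrast chose the set, so nothing is read from these shares. The siYAP1 libraries lay wholly below the siNC libraries for 4 of the 7 genes and wholly above for 1, against 30.6% below and 28% above among all genes tested. Without the second siYAP1 library, the one of the 4 with counts of COL3A1, the log2 fold change was -1.07 for ADAM9, -0.82 for ADAM10, -0.68 for ADAM17 and -0.60 for RECK. ADAM15 was then at 0.37. Without the first siYAP1 library the log2 fold change was -1.12 for ADAM9 and -0.71 for ADAM10, and RECK turned to 0.05. ADAM17 was then at -0.31, and at -0.29 without the first siNC library. Each of these fits leaves 1 library in a group, so no calls are given for them.

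These differences ran broadly with the GC content of the transcripts, though not in order among ADAM9, ADAM10 and ADAM17. ADAM9 (39.4% GC), ADAM10 (38.3%) and ADAM17 (38.5%) were the AT-rich members and had the most negative fold changes, while ADAM15 (63.9%) had the most positive. Over 14547 genes the log2 fold change rose with GC content, with a Spearman rho of 0.485; genes are no independent replicates of one another. Once GC content and length were corrected for, the log2 fold change was -0.77 (SE 0.106) for ADAM9, -0.41 (SE 0.106) for ADAM10, -0.18 (SE 0.213) for ADAM17, 0.20 (SE 0.089) for ADAM15 and -0.22 (SE 0.107) for TIMP2. The part of the GC trend in these differences was not tested further.

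**Figure D2:**
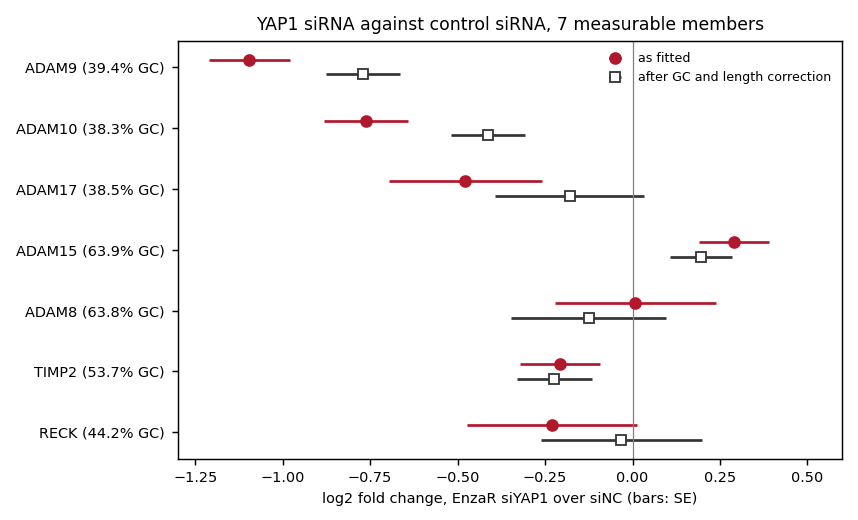
Log2 fold change of siYAP1 over siNC (horizontal axis; bars are standard errors) for the 7 genes that passed the filter, as fitted (filled circles) and after correction for GC content and length (open squares). ADAM9 moved to -0.77 and ADAM10 to -0.41 after correction, both nearer to 0 than as fitted.

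Genes that act with the sheddases were taken from 8 lists, of 147 genes in all, of which 84 were tested: 3 were higher in siYAP1, 9 were lower and 72 did not pass, and 12.1% of all tested genes were called in either direction. Their median log2 fold change was -0.06, against -0.03 over all genes tested. Among 20 tested partners of ADAM10 and ADAM17, 3 fell and 1 rose. TSPAN15, a tetraspanin that carries ADAM10 to the cell surface, fell to 69.2 and 69.1 CPM in siYAP1, against 85.3 and 94.5 CPM in siNC (log2 fold change -0.38, SE 0.103, edgeR adjusted p = 0.0236). DLG1, a scaffold that binds ADAM10, and SNX9, a sorting nexin that binds ADAM9 and ADAM15, fell by 0.64 and 0.64 on the log2 scale (edgeR adjusted p = 0.0124 and 0.0174). PCSK7, a proprotein convertase that can cut the ADAM10 precursor, rose to 63.2 and 64.1 CPM in siYAP1, against 42.0 and 39.5 CPM in siNC (log2 fold change 0.64, SE 0.109, edgeR adjusted p = 0.00202). The iRhoms RHBDF1 (log2 fold change -0.21) and RHBDF2 (0.12), which carry ADAM17, and the convertase FURIN (0.03) did not pass.

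Among 30 tested membrane proteins that sheddases release, apart from ERBB ligands, 5 fell and 0 rose. SDC4, a heparan sulphate proteoglycan, was the most affected: it was at 39.2 and 44.9 CPM in siYAP1, against 75.2 and 72.1 CPM in siNC (log2 fold change -0.81, SE 0.111, edgeR adjusted p = 0.00039). CDH1 (E-cadherin), the desmosomal cadherin DSG2, the adhesion molecule ALCAM, which are substrates of ADAM10 or ADAM17, and the receptor NOTCH3 fell by 0.38, 0.41, 0.55 and 0.40 on the log2 scale (edgeR adjusted p = 0.0245, 0.0314, 0.0192 and 0.0301). All 4 tested ERBB ligands missed the threshold, with log2 fold changes of -0.36 for EGF, -0.22 for NRG4, -0.09 for HBEGF and 0.06 for TGFA. None had an unadjusted p under 0.05, and DESeq2 and limma-voom called 0 of them.

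Of 5 tested matrix metalloproteinases, MMP24 was called lower in siYAP1 (log2 fold change -0.72, SE 0.194, edgeR adjusted p = 0.0242). It was at 5.67 and 5.88 CPM in siYAP1, against 9.47 and 9.45 CPM in siNC. DESeq2 called 0 of the matrix metalloproteinases in either direction, and limma-voom called 1 lower. Of 4 ADAMTS proteases and of 3 other ADAM genes, 0 were called with edgeR, DESeq2 or limma-voom. At an unadjusted p under 0.05 edgeR had 1 of each lower, ADAMTS17 (log2 fold change -0.45) and ADAM22 (-0.45). Of 7 tested genes in the list of other inhibitors and RECK partners, CST3 (cystatin C, an inhibitor of cysteine proteases) rose to 208.7 and 157.3 CPM in siYAP1, against 126.9 and 136.5 CPM in siNC (log2 fold change 0.47, edgeR adjusted p = 0.0155). PSENEN, a subunit of the gamma-secretase that cuts the stubs left by shedding, rose by a log2 fold change of 0.56 (edgeR adjusted p = 0.0109), while the other 10 tested genes of its list did not pass. Without the first siYAP1 library the log2 fold change was 0.24 for CST3, 0.37 for PSENEN, -0.23 for NOTCH3 and -0.27 for DSG2. That of ALCAM was -0.31 without the second siNC library. Each of these fits leaves 1 library in a group, so no calls are given for them. After GC and length correction DLG1 (38.7% GC), ALCAM (39.6%) and DSG2 (42.0%) lost their call, with edgeR adjusted p = 0.246, 0.337 and 0.463.

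The comparison of EnzaR with LNCaP cells set the 2 siNC libraries against the mean of the 4 LNCaP groups. TIMP2 was the member that set the lines apart: siNC held 44.8 and 42.1 CPM of it, against 265.2, 265.4, 241.6 and 266.6 CPM in the EV-siYAP1, EV-siCII, EV-siNC and control libraries of LNCaP. The log2 fold change was -2.58 (SE 0.096, edgeR quasi-likelihood test, adjusted p = 2.85e-18), the means being 43.5 ± 1.91 CPM (SD, n = 2) and 260 ± 12.1 CPM (SD over 4 libraries). Both siNC libraries lay below every LNCaP library for TIMP2, and above every one for ADAM10, as they lay below for 37.5% and above for 36.4% of all genes tested. For TIMP2 the log2 fold change ranged from -2.78 to -2.21 over all alternatives run. At an adjusted p under 0.05 and a 2-fold difference, TIMP2 was the 1 member called lower and 0 were called higher among 9 tested, where 18.3% of 17537 tested genes were lower and 17.1% higher. The lines also differ in the drug in the medium and in transfection, which cannot be told apart from the line here.

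The proteases lay closer together. ADAM10 had 50.2 and 57.0 CPM in siNC, against 47.5, 44.3, 45.1 and 32.6 CPM in the EV-siYAP1, EV-siCII, EV-siNC and control libraries, so that both siNC libraries lay above all 4. Its log2 fold change of 0.35 (SE 0.099, edgeR adjusted p = 0.00264) was under 2-fold, and it was 0.72 against the control library alone. After GC and length correction it was 0.01. ADAM9, whose siNC libraries are those of the contrast that chose it, is given as a description: it was at 60.8 and 68.3 CPM in siNC, against 64.1, 51.5, 56.2 and 33.3 CPM in the same 4 LNCaP libraries. These values overlapped, with a log2 fold change of 0.37 (SE 0.094) that came to -0.03 after GC and length correction. It was 0.96 (SE 0.143) against the control library alone and 0.19 without that library.

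With the siYAP1 libraries in place of siNC, the log2 fold change against LNCaP was -0.72 for ADAM9 and -0.40 for ADAM10. The 2 comparisons share the 4 LNCaP libraries. ADAM15 averaged 543.5 ± 45.5 CPM in siNC and 542.2 ± 72.1 CPM in LNCaP, and the ranges overlapped (log2 fold change 0.01, SE 0.084); after GC and length correction it was 0.83. ADAM17 (-0.12, SE 0.181), ADAM8 (-0.12, SE 0.199) and RECK (-0.07, SE 0.205) also overlapped between the lines, and all 3 had edgeR adjusted p above the threshold, at 0.555, 0.612 and 0.759. After GC and length correction ADAM17 was at -0.67 (SE 0.177), ADAM8 at 0.60 (SE 0.194) and RECK at -0.26 (SE 0.197), all under 2-fold. Over 16988 genes the log2 fold change between the lines fell with GC content, with a Spearman rho of -0.329. The summed fibroblast markers, mostly COL1A1, were at 18.9 to 25.4 CPM in EnzaR and 110 to 128 CPM in LNCaP libraries; their part in the TIMP2 difference was not tested.

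Between the lines, 104 of the 147 genes around the sheddases were tested, and 39 were lower and 4 higher in siNC, where 35.4% of all tested genes were called in either direction. Their median log2 fold change was -0.56, against -0.02 over all genes tested. After GC and length correction 30 of them were lower and 9 higher, where 2753 of all genes tested were lower and 2966 higher. SH3PXD2A (TKS5), an invadopodium scaffold that binds ADAM12, ADAM15 and ADAM19, was at 1.26 and 1.27 CPM in siNC, against 28.4 to 41.0 CPM in LNCaP (log2 fold change -4.71, edgeR adjusted p = 1.37e-17). Of the 20 tested ADAM partners, 6 were lower in siNC, among them the ADAM10-carrying tetraspanin TSPAN10 (log2 fold change -1.93, edgeR adjusted p = 3.67e-08), the sorting nexin SNX33 (-1.58, edgeR adjusted p = 3.17e-13) and SH3PXD2B (-1.23, edgeR adjusted p = 2.09e-11). SNX33 and SH3PXD2B were under 2-fold after GC and length correction, at -0.97 and -0.69.

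The called proteases of the neighbouring families were all lower in EnzaR siNC. Of 6 tested other ADAM genes 2 were lower and 0 higher; ADAM33 had 0 counts in both siNC libraries and 1.46 CPM on average in LNCaP, at least 8.83-fold lower in siNC, and ADAM19 also had 0 counts in siNC. Of 11 tested ADAMTS genes 7 were lower and 0 higher, led among those at 5 CPM by ADAMTS1, an aggrecan- and versican-cutting protease, at 104.1 and 100.7 CPM in siNC and 624.3 to 720.8 CPM in LNCaP (log2 fold change -2.72, edgeR adjusted p = 6.71e-19). ADAMTS13 (-2.19, edgeR adjusted p = 3.91e-14), which cuts von Willebrand factor, and ADAMTS7 (-2.02, edgeR adjusted p = 5.96e-13) were also lower. Of 8 tested matrix metalloproteinases 5 were lower and 0 higher. MMP16, a membrane-type metalloproteinase, had 0 counts in both siNC libraries and 29.6 CPM on average in LNCaP, at least 180-fold lower in siNC against a floor of 3 counts per library. MMP11 was at -1.83 (edgeR adjusted p = 2.48e-12) and MMP24 at -1.18 (edgeR adjusted p = 5.05e-08), and MMP24 was at -0.62 after GC and length correction.

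In the list of other inhibitors and RECK partners 4 of 9 tested genes were lower and 0 higher: SERPINE2 (log2 fold change -2.21, edgeR adjusted p = 1.09e-10), CST3 (-1.42, edgeR adjusted p = 2.22e-12), SPINT1 (-1.11, edgeR adjusted p = 8.37e-12), which inhibits matriptase, and ADGRA2 (-1.09, edgeR adjusted p = 0.000405), the receptor that works with RECK in WNT7 signalling. SPINT1 and ADGRA2 were at -0.61 and -0.32 after GC and length correction, under 2-fold. Among 35 tested shed membrane proteins 13 were lower and 3 higher. LRP1, an endocytic receptor that clears TIMPs and proteases, was at 30.4 and 32.3 CPM in siNC, against 282.4 to 317.5 CPM in LNCaP (log2 fold change -3.25, edgeR adjusted p = 8.5e-20). The adhesion molecule L1CAM (-3.70, edgeR adjusted p = 1.3e-10) and the Notch ligand JAG1 (-2.46, edgeR adjusted p = 1.7e-16) were lower too. EGF was the 1 ERBB ligand of 4 tested that was called, at 7.44 and 7.41 CPM in siNC, against 2.35 to 3.63 CPM in LNCaP (log2 fold change 1.38, edgeR adjusted p = 9.12e-07).

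The beta-secretase-like BACE2 (log2 fold change -1.78, edgeR adjusted p = 1.15e-06) and the gamma-secretase subunit APH1B (-1.46, edgeR adjusted p = 1.89e-11) were the 2 of 11 secretase genes called, both lower in siNC. Adjusted p-values of this comparison rest on the spread of the EnzaR pairs alone, since each LNCaP group has 1 library.

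**Figure D3:**
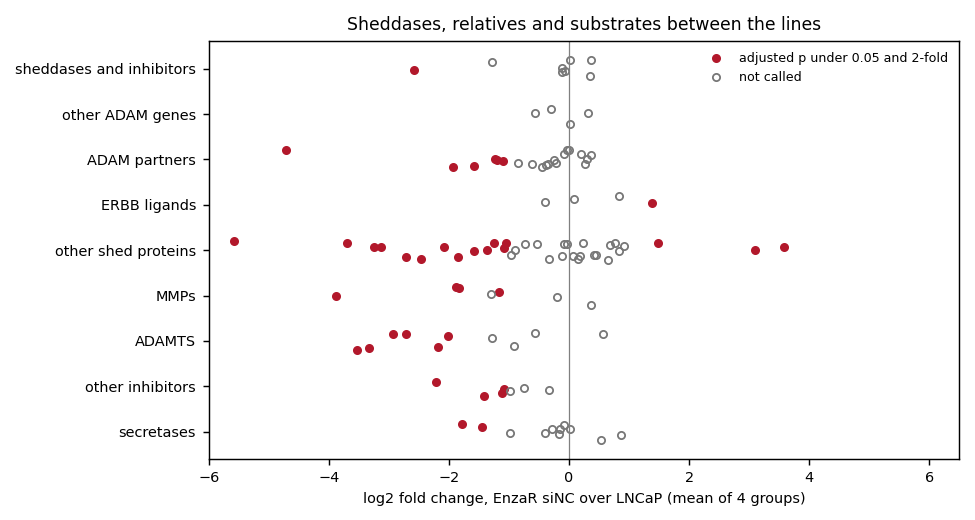
Log2 fold change of EnzaR siNC over LNCaP (horizontal axis, mean of 4 LNCaP groups) for the sheddases, their inhibitors and the 8 related lists (rows); each point is a tested gene, filled where it passed an adjusted p of 0.05 and 2-fold, and genes with a group at 0 counts are left out. TIMP2 is the 1 filled point of the top row, and filled points of the ADAMTS and MMP rows all lie below 0.

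The vesicle comparisons in LNCaP have 1 library per group and therefore no test; intervals are exact binomial limits at 95% that cover counting error only. Given EV-siNC, LNCaP cells held more ADAM9 and ADAM10 and less ADAM15 transcript than the control. ADAM9 was at 56.2 CPM with EV-siNC and 33.3 CPM in control, a log2 ratio of 0.76 (0.61 to 0.91). ADAM10 was at 45.1 CPM with EV-siNC and 32.6 CPM in control, a log2 ratio of 0.47 (0.31 to 0.62). ADAM15 was at 507.7 CPM with EV-siNC and 626.6 CPM in control, a log2 ratio of -0.30 (-0.34 to -0.26).

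TIMP2 was at 241.6 CPM with EV-siNC and 266.6 CPM in control, a log2 ratio of -0.14 (-0.20 to -0.08). ADAM17, ADAM8 and RECK stayed under 10 CPM, and their intervals all included 0. Of the 4 members at 10 CPM, 1 (ADAM9) passed 1.5-fold upward and 0 downward, where 2.88% of 8950 genes passed upward and 0.223% downward. The log2 ratio fell with GC content over 8847 genes, with a Spearman rho of -0.542, and after GC and length correction ADAM9 was at 0.41, under 1.5-fold, ADAM10 at 0.09 and ADAM15 at -0.23. The part of the GC trend in these ratios was not tested further.

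All 3 vesicle libraries share the one control library. Set against it, the log2 ratio of ADAM9 was 0.95 (0.80 to 1.09) with EV-siYAP1 and 0.63 (0.48 to 0.78) with EV-siCII, and that of ADAM10 was 0.54 (0.39 to 0.70) with EV-siYAP1 and 0.44 (0.29 to 0.60) with EV-siCII. These ratios too fell with GC content, with a Spearman rho of -0.468 over 8917 genes for EV-siYAP1 and -0.466 over 8790 genes for EV-siCII. After GC and length correction ADAM9 was at 0.58 with EV-siYAP1 and 0.35 with EV-siCII, both under 1.5-fold, and ADAM10 at 0.13 with EV-siYAP1 and 0.14 with EV-siCII. TIMP1 stood at 4, 2 and 0 counts in the EV-siYAP1, EV-siCII and EV-siNC libraries, against 52 counts in control. With EV-siNC it was thus at least 18.3-fold lower than in control, against a floor of 3 counts per library. Of the fibroblast markers, COL1A2 and DCN had 0 counts in all 3 vesicle libraries, against 9 and 3 counts in control. COL1A1 had 2025, 1723 and 1842 counts with EV-siYAP1, EV-siCII and EV-siNC, against 1734 counts in control. COL3A1 had 179, 162 and 198 counts in the same order, against 176 counts in control. PDGFRB had 49, 44 and 28 counts, against 48 counts in control, and LUM had 0 in each of these libraries. The part of fibroblast transcripts in the TIMP1 difference was not tested.

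Between vesicle preparations the members differed less. ADAM9 was at 64.1 CPM with EV-siYAP1 and 56.2 CPM with EV-siNC, a log2 ratio of 0.19 (0.07 to 0.31), and at 51.5 CPM with EV-siCII, a log2 ratio of -0.13 (-0.26 to 0.002) over the same EV-siNC library. ADAM10 was at 47.5 CPM with EV-siYAP1 and 44.3 CPM with EV-siCII, against 45.1 CPM with EV-siNC, and both intervals included 0. ADAM15 had a log2 ratio of -0.14 (-0.18 to -0.09) for EV-siYAP1 and 0.17 (0.13 to 0.21) for EV-siCII over EV-siNC. TIMP2 had a log2 ratio of 0.13 (0.08 to 0.19) for EV-siYAP1 and 0.14 (0.08 to 0.19) for EV-siCII over EV-siNC. None of the 4 members at 10 CPM passed 1.5-fold in either comparison, where 0.641% of 9046 genes did for EV-siYAP1 and 0.48% of 8966 for EV-siCII.

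Of the genes around the sheddases, DLG1 alone passed 1.5-fold for EV-siNC over control, with a log2 ratio of 0.67, and 0 did for EV-siYAP1 or EV-siCII over EV-siNC. Set against the control library, 3 of the 68 list genes at 10 CPM were higher and 1 lower with EV-siYAP1, where 6.71% of 9020 genes passed in either direction, and 2 were higher and 0 lower with EV-siCII, where 1.57% of 8894 did. DLG1 (log2 ratio 0.73 with EV-siYAP1 and 0.71 with EV-siCII) and DSG2 (0.71 with EV-siYAP1 and 0.63 with EV-siCII) were past 1.5-fold in both, and ALCAM (0.82) and the iRhom RHBDF2 (-0.63) with EV-siYAP1. Like those of ADAM9, transcripts of DLG1 are AT-rich, with 38.7% GC. Those of ALCAM and DSG2, also higher, held 39.6% and 42% GC, and those of RHBDF2, which was lower, held 62.9%. The part of the GC trend in the ratios of these genes was not tested.

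**Figure D4:**
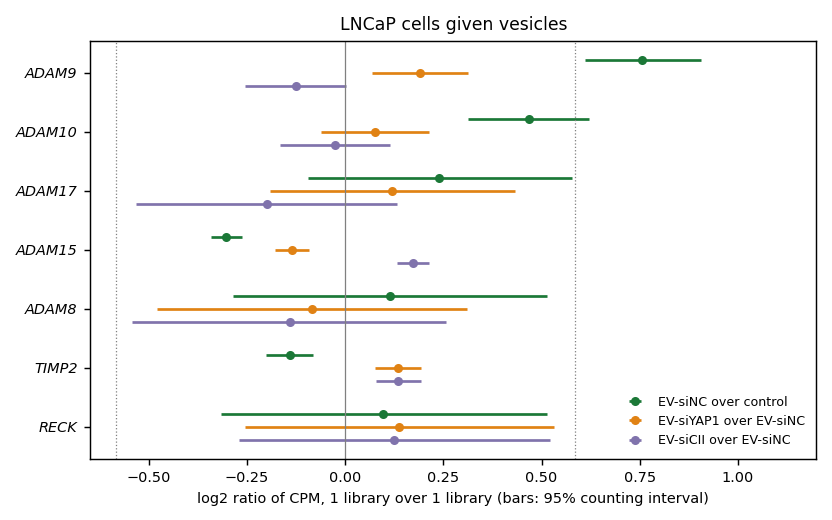
Log2 ratio of CPM between single LNCaP libraries (horizontal axis; bars are 95% counting intervals) for 7 genes, with dotted lines at 1.5-fold. ADAM9 with EV-siNC over control, at 0.76, is the 1 point past a dotted line.

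Across the 8 libraries the profile of ADAM9 was most like those of C11orf54, ADAM10, WWP1, ARHGAP5 and SLC7A2 among 8921 genes, measured as the root mean square difference in log2 CPM centred on each gene's mean. The distances were 0.161 for C11orf54, 0.177 for ADAM10, 0.183 for WWP1, 0.185 for ARHGAP5 and 0.186 for SLC7A2. ADAM10 thus ranked 2 of all. ADAM15 ranked 5087, at 0.631, and TIMP2 ranked 8540, at 1.32. Transcripts of the 5 most similar genes held 34.2% to 41% GC, and the ranking is a description over 8 libraries that fall into 6 groups.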

How the data were processed

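Gene expression was measured by RNA sequencing of total RNA in 8 libraries, grouped by the sample labels. The deposited table holds the authors' raw read counts per gene and the authors' FPKM, recomputed here from count, exonic length and total for all 463240 values to within 0.0051. Tools in the submitters' processing notes are HTSeq 0.6.1, HISAT2 2.0.1, cutadapt 1.9.1 and DESeq2, with the build hg19 (GRCh37); the annotation release is not given in the sources used here. No column was unmapped (0), and 0 rows named no gene. Symbols were matched for 39538 identifiers, which held 98.96% of counts, and GC content came from a GRCh38 annotation. Coordinates are those of the deposited table. Counts of no 2 libraries of the same line matched within sampling noise: chi-square per degree of freedom was 8.11 for siYAP1, 6.89 for siNC and at least 5.03 for any pair within a line.

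Counts were tested with edgeR 4.0.16 (filterByExpr, TMM, robust quasi-likelihood, Benjamini-Hochberg) in R 4.3.3, on the 4 EnzaR libraries for siYAP1 and on all 8 for the lines. CPM is TMM-scaled over the 8 libraries, and a prior count of 2 entered the LNCaP ratios, used from 10 CPM. Tested on simulated data, the siYAP1 fit (14985 genes) recovered 99% of the 2-fold and 74% of the 1.5-fold changes with 4.42% of calls false, and the fit of the lines (17553 genes) 100% and 86%, with 2.62% false. The simulation gave all genes the same dispersion, changed only genes above 5 CPM and held no GC trend. Its rates describe that setting and not the measured libraries. Alternatives were DESeq2 1.42.0, limma 3.58.1 (voom), other scalings, filters and folds, a replicate block, a GC and length correction (mgcv 1.9.3) and each library left out. Named genes are the 10 members, YAP1 and NR2F2, and from each other list the largest called changes (up to 5 for siYAP1, up to 4 between lines, at 5 CPM; those past 1.5-fold in LNCaP), plus the 5 genes most like ADAM9; further genes named with values were chosen after these were seen. The members and lists were chosen with earlier results of these data known. Of 159 listed genes 158 matched. Some genes that this rule names are not reported here.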

Additional observations from a re-analysis of the deposited data

How the results depend on the processing

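Counts of genes called for siYAP1 over siNC moved with the processing, from 872 higher and 930 lower. They were 291 and 1416 with library totals alone (which shifted the median of all genes by -0.11 on the log2 scale), 916 and 467 with DESeq2, 530 and 225 after GC and length correction, and 489 and 252 with that correction and the replicate block. With the replicate block alone they were 564 and 845, with 0 members higher and 2 lower; CDH1 then had an edgeR adjusted p of 0.056. The replicate numbers share no stated pairing, and deviations of same-numbered libraries had a correlation of -0.079 over 14948 genes. Leaving out 1 library gave 15 to 940 higher and 11 to 829 lower genes, 0 to 1 members higher and 1 to 2 lower, and 0 to 4 list genes higher and 0 to 7 lower. ADAM15 made 1 member higher without a filter and with DESeq2, which called 5 list genes higher.

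Between the lines, members lower became 2 against control alone, where TIMP1 joined with its 52 counts in control, and 2 with siYAP1 in place of siNC, where TIMP3 joined on 1 count per siYAP1 library; list genes higher became 9 after GC correction. Leaving out 1 library gave 2710 to 3035 higher and 2923 to 3184 lower genes, 4 to 5 list genes higher and 37 to 41 lower, and 0 members higher and 1 lower throughout. In LNCaP, genes past the fold for EV-siNC over control were 460 and 59 at a floor of 5 CPM, 5 and 5 at 2-fold and 34 and 48 after GC correction, an alternative added after seeing the data, as was the correction of the other 2 comparisons with control; members higher were 0 at 2-fold and 0 after correction. EV-siYAP1 over EV-siNC gave 71 and 84 at 5 CPM and 1 and 4 at 2-fold, and EV-siCII over EV-siNC gave 49 and 92, and 1 and 6.

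Direction changed for small differences. For siYAP1, the log2 fold change of ADAM8 was -0.092 with totals alone and -0.125 after GC correction with and without the block, that of NR2F2 0.023 in both corrected fits; leaving out 1 library gave -0.174 to 0.217 for ADAM8, -0.597 to 0.045 for RECK and -0.101 to 0.03 for NR2F2. Between the lines, ADAM15 was at -0.002 with DESeq2 and with its size factors, -0.037 with totals alone and -0.205 against control alone, where ADAM17 was at 0.034 and RECK at 0.064. After GC correction ADAM8 was at 0.60, ADAM9 at -0.034 and NR2F2 at 0.101, and with siYAP1 in place of siNC ADAM9 was at -0.718 and ADAM10 at -0.404. Leaving out 1 library gave -0.074 to 0.100 for ADAM15, -0.317 to 0.047 for ADAM17 and -0.318 to 0.060 for ADAM8. The causes were not tested. Depth limits TIMP1, TIMP3 and ADAM12, and 1 library per LNCaP group leaves ratios there without a replicate check.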
